A study of Mus musculus with 25 samples.

Results

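Cluster 14 of the deposited annotation held 118 of the 30958 cells of the series, and all of them carried the deposited cell type code 2. The members were found by joining the deposited table of clusters and codes to the raw count matrix of each library by cell barcode. They made up 0.919% of the 12841 cells of code 2 and 0.381% of all cells. Without D2_resident 1, which held more of them than any other library, they made up 0.545% of the code 2 cells. The deposited table gives numbers and no cell type names. The cells of code 2 are taken as monocytes and macrophages, and those of code 1, whose summed microglia marker level was 12239.5 CPM (a gene's UMIs scaled to a fixed total per group of cells) against 650 CPM in the other code 2 cells, as microglia. Cluster 14 stays unnamed here, because no marker of a cell type was among its 10 genes with the highest ratio to the other code 2 cells, although the response genes Ccl3 and Tnf were.

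Mouse myeloid cells were sorted from the spinal cord by flow cytometry and profiled by droplet single-cell RNA sequencing, which counts unique molecular identifiers (UMIs) at the 3′ end of transcripts. The 25 libraries comprised 2 from laminectomy controls and 5, 4, 7, 5 and 2 from days 1, 2, 3, 10 and 21 after spinal cord injury, each pooled from 1 to 3 mice of unstated age; 9 libraries were from female and 16 from male mice. The mixed sort (12 libraries, YFP+) came from the strain Cx3cr1CreERT2, in which Cre recombinase sits at the locus of a fractalkine receptor that microglia and many macrophages express. The resident sort (5 libraries, RFP+/YFP+) and the infiltrating sort (7 libraries, RFP-/YFP+) came from Cx3cr1CreERT2:R26tdTomato mice, which add a red reporter. In 1 library of day 3, called D3_conflict 1 here, the title names infiltrating cells and the sort label reads RFP+/YFP+. Libraries are named below by day, sort and replicate. Each library held 155 to 3800 cells and 486649 to 33204422 UMIs in all, with a median of 1577 to 11233 UMIs per cell. A cell barcode of 16 bases found in more than 1 library belonged to 2 of the 118 cells.

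Monocytes that enter an injured cord from the blood lose Ly6c2 and gain macrophage genes as they clear debris, while microglia are the resident macrophages of the tissue. Activated cells of both lineages secrete chemokines and cytokines such as Ccl3, Ccl4 and Tnf. Ribosomal protein messages are short, abundant and cytoplasmic, and their share of a cell's counts differs between cell types.

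Cluster 14 cells were concentrated in a few libraries. The library D2_resident 1 held 49 of them, which was 26.5% of its 185 code 2 cells (exact binomial 95% interval 20.3 to 33.5%). D3_infiltrating 1 held 23, but these were 1.42% (0.901 to 2.12%) of its 1622 code 2 cells. These 2 libraries supplied 72 cells, 61.0% of the cluster. D1_mixed 3 held 13 of 54 code 2 cells (24.1%, interval 13.5 to 37.6%) and D3_resident 1 held 8 of 40 (20%, interval 9.05 to 35.6%). D3_conflict 1 held 7, D1_infiltrating 2 held 5 and D1_mixed 1 held 4, and 7 further libraries held 1 or 2 each. All intervals cover counting error only.

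The share differed between the libraries of the day 3 resident sort, which also differ in sex and sequencing pool. The male library D3_resident 2 had 1 cluster 14 cell among 79 code 2 cells (1.27%, interval 0.0320 to 6.85%) and the female library D3_resident 1 had 20%. The intervals of the day 1 infiltrating replicates, 1 of each sex, overlapped (0.158 and 0.265%), as did those of the day 10 mixed replicates (1.89 and 1.47%). All 3 day 3 mixed libraries had 0 cluster 14 cells, but D3_mixed 1 and D3_mixed 2 held only 1 and 2 code 2 cells. The largest, D3_mixed 3, had 3019 code 2 cells. A count of 0 there allows a share of up to 0.0994%, taking 3 cells as the limit. By day, the cluster counted 24 cells on day 1 (0.739% of code 2 cells), 52 on day 2 (3.78%), 39 on day 3 (0.547%), 2 on day 10 (0.217%) and 1 on day 21 (0.599%). Without the library with the most cluster 14 cells of the day, the first 3 shares were 0.344% (without D1_mixed 3), 0.252% (3 cells, without D2_resident 1) and 0.290% (without D3_infiltrating 1). By sort, it was 13.2% of the 438 code 2 cells of resident libraries, 0.516% of the 6007 of infiltrating libraries and 0.546% of the 4029 of mixed libraries. Without D2_resident 1 the resident share was 3.56% (9 of 253), without D3_infiltrating 1 the infiltrating share was 0.182% (8 of 4385), and without D1_mixed 3 the mixed share was 0.226% (9 of 3975). By sex, the cluster counted 99 cells in 9 of the 16 male libraries (1.26% of their 7858 code 2 cells) and 19 in 5 of the 9 female libraries (0.381% of 4983), and the 2 libraries with the most cells were male. Without D2_resident 1 the male share was 0.652%, and without D3_resident 1 the female share was 0.223%. The controls held no code 2 cells. The shares are a description, because the cluster was made from genes that can differ between days. Day, sort, sex and sequencing pool cannot be told apart for the largest library, since it alone supplied all cluster 14 cells of its pool.

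**Figure D1:**
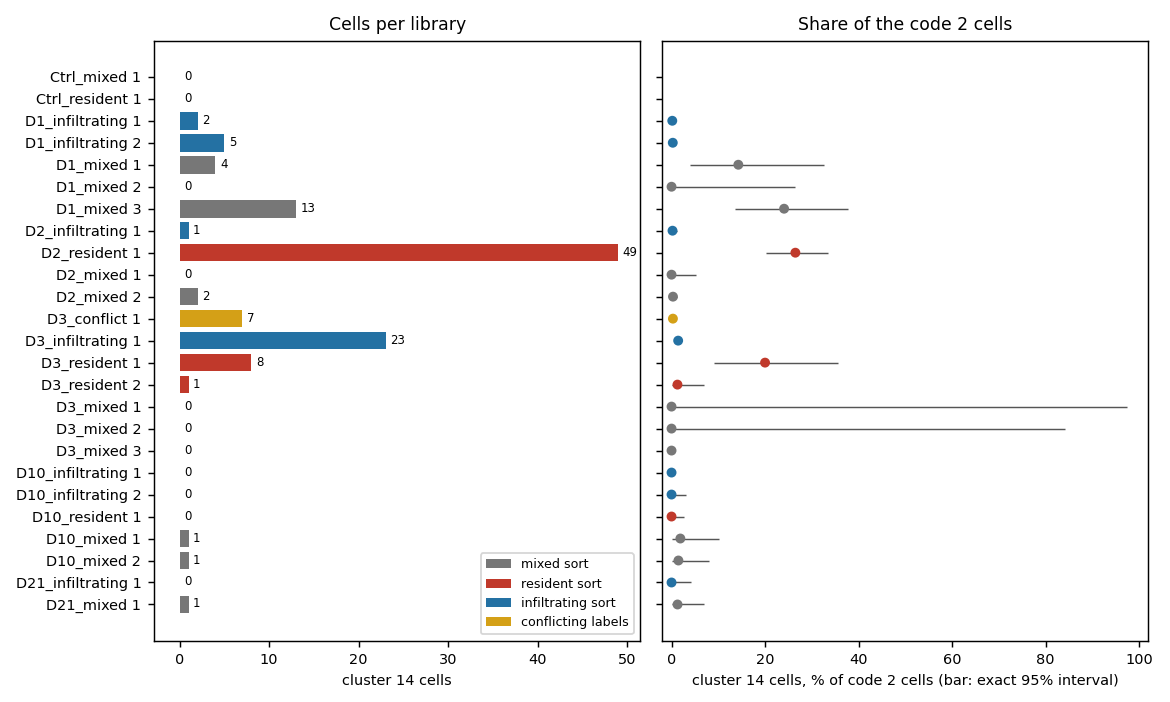
Left, number of cluster 14 cells in each of the 25 libraries, coloured by sort. Right, the same cells as a percent of the code 2 cells of the library, with exact 95% binomial intervals; libraries without code 2 cells have no point. D2_resident 1 with 49 cells and D3_infiltrating 1 with 23 stand above the rest by number, and their shares are 26.5% and 1.42%.

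The cells were shallow. Their median was 1488 UMIs (range 713 to 32487), against 9183 in the other 12723 code 2 cells, and 0.364 of the median of their own libraries; 18 cells exceeded 5000 UMIs. D1_mixed 3 went the other way, with a median of 6636 UMIs in cluster 14 and 3639 in its other code 2 cells.

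Ribosomal protein genes took a low share of these UMIs. The median was 2.70% per cell in cluster 14, 11.6% in the other code 2 cells, 17.5% in microglia and 5.58% in the neutrophil-like cells of code 4. In D2_resident 1 the median was 3.19% (range 0.542 to 17.2%) in cluster 14 and 9.69% in the other code 2 cells. In D3_infiltrating 1 it was 0.204% (range 0 to 1.91%) against 8.17%. In D1_mixed 3 it was 6.61% against 11.7%, in D3_resident 1 1.86% against 12.8%, and in D3_conflict 1 4.15% against 12.5%. All 5 libraries with 7 or more cluster 14 cells thus had the lower median there, and the ranges of single cells overlapped.

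The shallow depth was accompanied by a wide spread over genes. When each cell was thinned to 700 UMIs, cluster 14 cells had a median of 551.5 genes and the other code 2 cells 440. The 8 other code 2 clusters had medians of 348 to 478. The excess was present within libraries, with 563 against 454 in D2_resident 1, 535 against 489 in D3_infiltrating 1 and 548 against 423 in D1_mixed 3. Against other code 2 cells of at most 2000 UMIs, cluster 14 cells of at most 2000 UMIs had 554 against 446.5 genes and 1.86% against 10.6% ribosomal protein UMIs over all libraries. Within D3_infiltrating 1 that matched comparison gave 540 against 538 genes, so the excess there was seen only against deeper cells, while the ribosomal share was 0.186% against 2.41%. In D2_resident 1, 9 other code 2 cells were that shallow, with 527 genes and 3.88%, against 565.5 genes and 2.31% in the 28 shallow cluster 14 cells.

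Over all libraries, the median share of mitochondrially encoded UMIs per cell was low as well. The median was 0.129% in cluster 14 and 1.01% in the other code 2 cells, and 38 cluster 14 cells (32.2%) had none, at the low depth given above. In D3_conflict 1 the median per cell was higher in the 7 cluster 14 cells, 7.05% against 1.58%. By summed level D3_infiltrating 1 was higher in cluster 14 as well, at 5547 CPM against 3515 CPM, and the median log2 ratio of the 13 genes there was 0.15. The summed level over all libraries was 9080 against 10930 CPM. With cells of at most 2000 UMIs on both sides, the median per cell was 0.293% against 0.899% over all libraries. It was 0.109% against 0.0622% (9 cells) in D2_resident 1, the opposite order. In D3_infiltrating 1 it was 0.0740% against 0.119%, and in D3_conflict 1 1.21% (5 cells) against 1.88%.

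A ribosomal share under 1% was found in 241 cells of the series, and 174 of these lay in D3_infiltrating 1. There they comprised 21 of the 23 cluster 14 cells, 130 other code 2 cells, 20 cells of code 3 and 3 of code 4. Of the 130, 129 belonged to cluster 11, and the 130 had a median of 9644.5 UMIs against 1382 in cluster 14. No microglia fell under 1%. D2_resident 1 held 4 cells under that line, all of cluster 14. The part that library quality plays in the low ribosomal share was not tested.

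**Figure D2:**
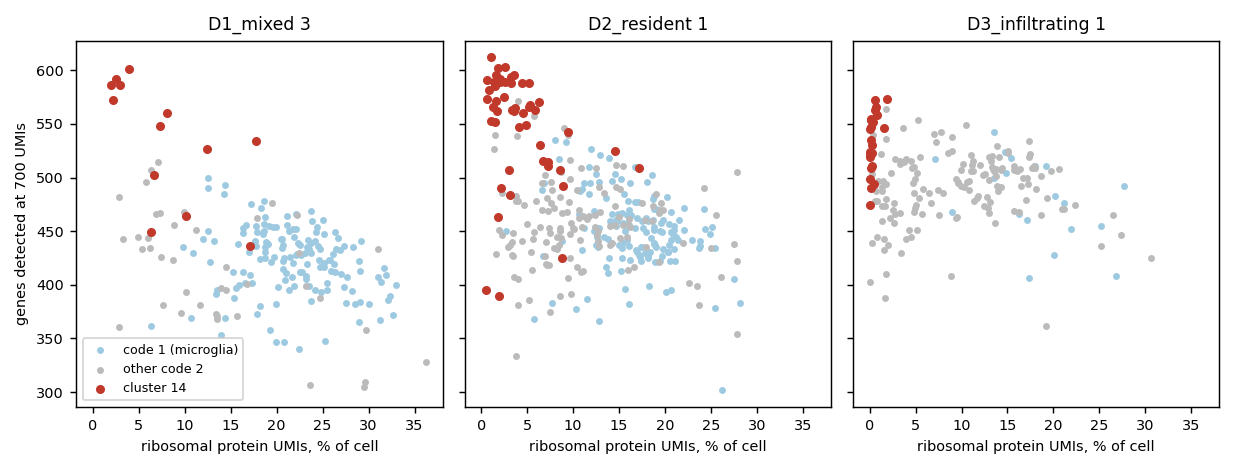
Each point is a cell, with the percent of its UMIs from ribosomal protein genes on the horizontal axis and the number of genes detected after thinning to 700 UMIs on the vertical axis, in the 3 libraries with 10 or more cluster 14 cells (up to 150 cells drawn at random for each of the other groups). Cluster 14 lies at the low ribosomal end, with library medians of 6.61, 3.19 and 0.204% from left to right.

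The label was checked against markers, as summed CPM of each list. The macrophage list (complement C1q genes, Apoe, Cd68 and others) reached 6993 CPM in cluster 14 of D2_resident 1, below the 18627 CPM of the other code 2 cells and the 29323 CPM of microglia there. In D3_infiltrating 1 it reached 21486 CPM against 12327 CPM in the other code 2 cells. The summed monocyte list was at 59.8 CPM in cluster 14 of D2_resident 1 and 39.9 CPM in that of D1_mixed 3, close to the 52.3 and 48.3 CPM of microglia, whereas the other code 2 cells had 3700 and 6425 CPM. In D3_infiltrating 1 it was at 4642 CPM in cluster 14 and 5338 CPM in the other code 2 cells, and Chil3 (2481 CPM) and F13a1 (1372 CPM) made up most of the former. Gene by gene the list was low there as well, with 7 of its 9 genes lower in both D2_resident 1 and D3_infiltrating 1. The microglia list (9 genes) was at 2640 CPM in cluster 14 of D2_resident 1, between the 458 CPM of the other code 2 cells and the 11241 CPM of microglia, and at 2257 CPM between 926 and 4201 CPM in D1_mixed 3. It was at 817 CPM against 571 CPM in the other code 2 cells of D3_infiltrating 1 and at 973 against 877 CPM in D3_resident 1. In D3_conflict 1 it was at 2246 CPM in 7 cluster 14 cells, 363 CPM in the other code 2 cells and 1958 CPM in 8 microglia. Those few cells set no order between cluster 14 and microglia there.

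The genes that carried that sum differed between the libraries. F13a1, a coagulation factor subunit of monocytes, had 0 UMIs in cluster 14 of D2_resident 1, where the other code 2 cells had 296 CPM, which is at least 13.2-fold lower with a floor of 3 counts over the summed cells. In D3_infiltrating 1 it had 47 UMIs, 1372 CPM against 433 CPM. Chil3, a chitinase-like protein of monocytes and macrophages, had 1 UMI in D2_resident 1 (7.48 CPM against 1767 CPM) and 85 in D3_infiltrating 1 (2481 CPM against 1624 CPM). Apoe, the lipid carrier, was at 307 CPM against 9774 CPM in D2_resident 1 and at 16523 CPM against 7197 CPM in D3_infiltrating 1. The defining microglia genes were low in both: P2ry12 had 4 UMIs and Tmem119 had 2 in D2_resident 1 (29.9 and 15.0 CPM, against 253 and 434 CPM in microglia), and both had 0 in D3_infiltrating 1.

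Markers of most other cell types were sparse. B cell markers (5 of 5), mast cell and basophil markers (5 of 5) and granule protease genes of progenitors (7 of 7) were at 0 in all cluster 14 cells. The T cell list had 5 of 6 genes at 0, natural killer cells 4 of 5 and fibroblasts or pericytes 5 of 6. Of the neutrophil list, 4 of 8 genes were at 0, among them Ly6g and Retnlg. The summed level was 112 CPM against 77.9 CPM in the other code 2 cells of D2_resident 1 and 175 against 55.2 CPM in D3_infiltrating 1. It was lower in D1_mixed 3 (59.9 against 511 CPM), D3_conflict 1 (225 against 248 CPM) and D3_resident 1 (0 against 79.5 CPM). The neuron list reached 217 CPM in cluster 14 of D2_resident 1 and 53.8 CPM in its other code 2 cells, and was at 0 in D3_infiltrating 1 and D1_mixed 3. The oligodendrocyte list was at 277 and 149 CPM in D2_resident 1 and at 87.6 and 98.9 CPM in D3_infiltrating 1. The summed dendritic cell list, of which 4 of 10 genes were at 0, was higher in cluster 14 than in the other code 2 cells of all 5 libraries with 7 or more cells, at 576 against 260 CPM in D2_resident 1, 525 against 339 CPM in D3_infiltrating 1, 250 against 148 CPM in D1_mixed 3, 649 against 247 CPM in D3_resident 1 and 1347 against 246 CPM in D3_conflict 1. Irf8 led that sum, microglia had 250 CPM in D1_mixed 3 as well, and the 2 genes of the list that were counted had medians of -0.77 in D2_resident 1 and 0.45 in D3_infiltrating 1. The nonclassical monocyte list, with 2 of 8 genes at 0, was at 651 against 86.2 CPM in D2_resident 1, 270 against 57.9 CPM in D1_mixed 3 and 292 against 254 CPM in D3_infiltrating 1. The part of these cell types in the other results was not tested.

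The clusters were made from these genes, so the ratio of cluster 14 to the other code 2 cells is a description with no test. It was taken within each library with at least 20 cells on either side, which left D2_resident 1 and D3_infiltrating 1, with 5 CPM added to both levels. Of 7480 genes at 20 CPM or more in the pooled cells of either side, 1235 (16.5%) were at least 2-fold higher in both libraries and 341 (4.56%) at least 2-fold lower in both. Genes that passed through cluster 14 alone add to the first count: with genes chosen by their level in the other code 2 cells, 612 were higher. A gene with 0 UMIs in cluster 14 has a ratio set by the 5 CPM. Such genes were also set to the floor of 3 counts, or to a log2 ratio of 0 where that floor exceeded the other code 2 cells. By that floor, 246 genes were at least 2-fold lower in both. The median ratio over all genes was above 0 on the log2 scale, 0.70 in D2_resident 1 and 0.31 in D3_infiltrating 1. Depth limits these values: 3 UMIs amount to 22.4 CPM in the 133709 UMIs of cluster 14 in D2_resident 1 and to 87.6 CPM in the 34255 of D3_infiltrating 1.

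The 20 genes with the highest median ratio included Ccl3, Cacna1a, Tnf, Apbb2, Arap3, Eid2, Snx29, Adgrl2, Nsun6, Ntn3, Kcnj2, Cdkl3, Pde1b, Ktn1, Pnpla6, Pdgfb, BC048403, AI597479 and AC149090.1. The choice asked for 20 CPM in cluster 14 alone, and 15 of the 20 were under 20 CPM in the other code 2 cells. Many rest on few molecules. Cacna1a, a subunit of a voltage-gated calcium channel, had 29 UMIs in the whole cluster and 1 in D3_infiltrating 1, and Ntn3, a netrin, had 10 UMIs. Of the 20, 10 were also leading with 1 CPM added, 8 with 20 CPM added, 4 when either library was used alone, and 1 when cells were thinned to 700 or to 2000 UMIs or limited to at most 2000 UMIs on both sides. The 10 lowest were Ifi27l2a, Tmsb10, Ifitm3, Ifitm2, H2-Eb1, Ifitm1, Tyrobp, Crip1, Fxyd5 and Cd52.

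The promoters of the chemokine and the cytokine that head the list, of the low interferon-inducible genes that hold an interferon-type motif, and of a pair of ribosomal protein genes are given here, to set the sequence at the start of high and low genes side by side. They run from 100 bases before to 20 bases after the annotated start, 5′ to 3′ on the gene's strand, from RefSeq on GRCm38.p6, and capitals mark a motif match.
Ccl3, chr11:83649359-83649478, minus strand: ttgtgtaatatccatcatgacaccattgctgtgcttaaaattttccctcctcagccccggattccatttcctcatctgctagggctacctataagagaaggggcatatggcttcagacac
Tnf, chr17:35201988-35202107, minus strand, TATA box: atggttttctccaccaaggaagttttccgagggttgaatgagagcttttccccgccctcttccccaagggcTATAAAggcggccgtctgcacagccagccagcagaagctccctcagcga
Ifitm3, chr7:141010725-141010844, minus strand, interferon-stimulated response element core: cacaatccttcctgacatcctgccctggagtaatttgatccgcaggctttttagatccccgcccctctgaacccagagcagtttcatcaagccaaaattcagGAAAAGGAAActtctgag
Ifitm2, chr7:140955942-140956061, minus strand, interferon-stimulated response element core: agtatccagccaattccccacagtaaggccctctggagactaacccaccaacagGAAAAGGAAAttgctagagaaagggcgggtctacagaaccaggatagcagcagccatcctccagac
Rps24, chr14:24490578-24490697, plus strand: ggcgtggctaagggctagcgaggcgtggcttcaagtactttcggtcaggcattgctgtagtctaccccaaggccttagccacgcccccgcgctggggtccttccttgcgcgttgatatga
Rpl41, chr10:128549149-128549268, minus strand, pyrimidine tract form on the other strand: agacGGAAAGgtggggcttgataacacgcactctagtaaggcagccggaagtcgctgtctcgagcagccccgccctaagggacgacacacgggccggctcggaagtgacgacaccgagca

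The motifs were sought on both strands of this window in 27025 promoters, and overlaps between motifs were allowed. TATAAA, the TATA box, was in 2 of the 14 leading genes that have a promoter entry and in 6.46% of all promoters. GAAA, any 2 bases and GAAA, the core of the interferon-stimulated response element, was in 2 of the 7 lowest genes with an entry and in 1.20% of all. CTTTCC, a pyrimidine tract form, was in 19 of 66 ribosomal protein genes and in 10.5% of all. GGG, any 2 bases and TTTCC, a form of the NF-kB site, was in 0 of the 14 leading genes and in 0.677% of all. A match is a description of letters in this window only.

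Ccl3, a CC chemokine that draws leukocytes, was the leading gene by median and was uneven between libraries. Its level in cluster 14 was 3687 CPM (493 UMIs, Poisson interval 3369 to 4027) in D2_resident 1, 5702 CPM (571 UMIs) in D1_mixed 3, 649 CPM (10 UMIs) in D3_resident 1, 58.4 CPM (2 UMIs, interval 7.07 to 211) in D3_infiltrating 1 and 0 UMIs in D3_conflict 1. The other code 2 cells of these libraries had 49.6, 1611, 64.7, 35.6 and 56.9 CPM in the same order. The level was thus high in the first 3 libraries and, in D3_infiltrating 1, its interval held the level of the other code 2 cells. Microglia had 281 CPM in D2_resident 1 and 799 CPM in D1_mixed 3. One cell gave 17.6% of the 1156 Ccl3 UMIs. The median log2 ratio of Ccl3 over the 2 libraries of the ranking was 3.36, and 1.01 with cells thinned to 700 UMIs.

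Ccl4, the neighbouring chemokine, had 1381 UMIs (10328 CPM against 159 CPM) in D2_resident 1, 564 (5633 CPM against 2579 CPM) in D1_mixed 3, 10 (649 CPM against 8.83 CPM) in D3_resident 1 and 0 in D3_infiltrating 1. A single cell gave 43.4% of all its UMIs. After thinning to 700 UMIs, 32.2% of cluster 14 cells (interval 23.9 to 41.4%) had a Ccl3 UMI, against 4.19% of the other code 2 cells, 14.4% of microglia and 33.9% of neutrophil-like cells. These shares pool libraries that hold the cell types in unlike numbers. Within D2_resident 1 the Ccl3 share was 49.0% in cluster 14, 3.68% in the other code 2 cells, 11.9% in microglia and 35.7% in 14 neutrophil-like cells (interval 12.8 to 64.9%), and the Ccl4 share was 42.9% in cluster 14 and 8.09% in the other code 2 cells. Within D3_infiltrating 1 it was 0 of 23 cluster 14 cells for Ccl3 (interval up to 14.8%), 1.75% of the other code 2 cells and 81.8% of 11 neutrophil-like cells.

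Tnf, the inflammatory cytokine, was among the 20 by its ratio in D2_resident 1 and D3_infiltrating 1, so its values there describe the choice. Its level was 426 CPM (57 UMIs, interval 323 to 552) against 28.3 CPM in D2_resident 1, 204 CPM (7 UMIs, interval 82.2 to 421) against 34.1 CPM in D3_infiltrating 1. Outside the ranking, D1_mixed 3 had 260 CPM (26 UMIs, interval 170 to 380) against 38.6 CPM, D3_resident 1 had 1 UMI (64.9 CPM, interval 1.64 to 361, against 23.5 CPM) and D3_conflict 1 had 0 UMIs. The log2 ratio was 3.70 and 2.42 in the 2 libraries of the ranking, and 24.1% of the 133 UMIs came from 1 cell. After thinning, 16.1% of cluster 14 cells and 1.63% of the other code 2 cells had a Tnf UMI.

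Several other genes were high in D2_resident 1 and D1_mixed 3, and differed less from the other code 2 cells in D3_infiltrating 1. The summed list of immediate early genes, which are also known to respond to tissue dissociation, was at 4293 CPM against 1611 CPM in D2_resident 1, 3555 against 1608 CPM in D1_mixed 3, 4735 against 1262 CPM in D3_resident 1, 2365 against 2149 CPM in D3_infiltrating 1 and 2171 against 1776 CPM in D3_conflict 1. Of its 9 genes counted, 0 were at least 2-fold higher in both libraries of the ranking, beside 16.5% of all genes counted. The part of this list in these results was not tested. Pdgfb, a growth factor for pericytes, was at 381 CPM (51 UMIs) against 12.4 CPM in D2_resident 1 and at 59.9 CPM against 9.65 CPM in D1_mixed 3, and had 3 UMIs (195 CPM against 2.94 CPM) in D3_resident 1 and 1 UMI in D3_infiltrating 1. Plk2, a stress-induced kinase, was at 703 CPM against 22.1 CPM in D2_resident 1, 240 CPM against 16.1 CPM in D1_mixed 3 and 1362 CPM against 14.7 CPM in D3_resident 1, and had 1 UMI in D3_infiltrating 1. Klf6, a zinc-finger transcription factor, was at 2266 CPM against 283 CPM, 1658 CPM against 450 CPM and 5124 CPM against 233 CPM in those 3 libraries, and at 467 CPM (16 UMIs, interval 267 to 759) against 305 CPM in D3_infiltrating 1. Lpl, which splits triglycerides, was at 1369 CPM against 106 CPM in D2_resident 1 and 1238 CPM against 183 CPM in D1_mixed 3, and at 87.6 CPM (3 UMIs) against 32.7 CPM in D3_infiltrating 1. Microglia had 453 and 936 CPM of Lpl in D2_resident 1 and D1_mixed 3. Plk2, Klf6, Lpl and Ccl4 are named for their levels and lie outside the rule for the 20.

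A second set was high in both libraries of the ranking. Ktn1, a membrane protein of the endoplasmic reticulum that binds kinesin, had 38 UMIs (284 CPM against 39.3 CPM) in D2_resident 1 and 18 (525 CPM against 70.6 CPM) in D3_infiltrating 1. It also had 454 CPM against 41.2 CPM in D3_resident 1, 299 CPM against 33.9 CPM in D3_conflict 1 and 220 CPM against 125 CPM in D1_mixed 3. Apbb2, an adaptor of the amyloid precursor protein, had 179 CPM (24 UMIs) against 13.1 CPM and 117 CPM (4 UMIs) against 13.2 CPM in the 2 libraries of the ranking. AC149090.1, which has no position in the annotation used here, had 501 CPM (67 UMIs) against 75.8 CPM and 525 CPM (18 UMIs) against 75.04 CPM. C3ar1, the receptor for complement C3a, had 1354 CPM (181 UMIs) against 409 CPM and 730 CPM (25 UMIs) against 356 CPM. Adam8, a membrane protease of myeloid cells, had 1144 CPM (153 UMIs) against 286 CPM and 555 CPM (19 UMIs) against 181 CPM. The first 3 of these genes were chosen by these ratios and the other 2 were taken from gene lists after their values were seen.

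**Figure D3:**
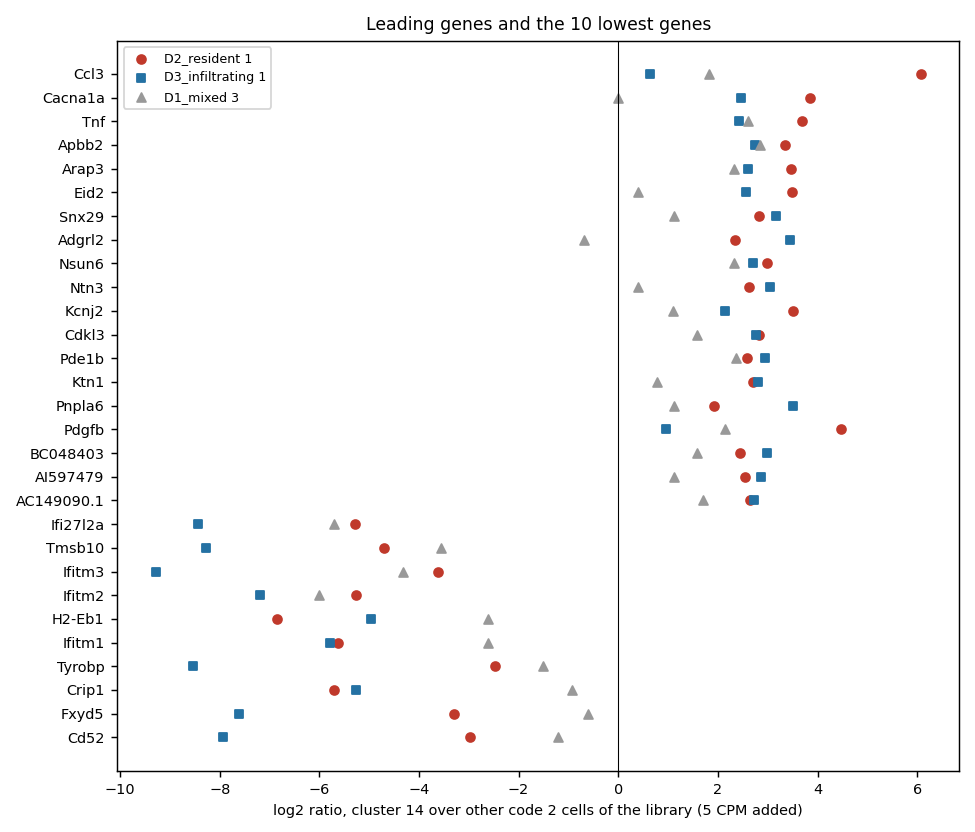
Log2 ratio of cluster 14 to the other code 2 cells of the same library (5 CPM added to both) for the leading genes named in the text and the 10 lowest genes, in D2_resident 1, D3_infiltrating 1 and D1_mixed 3, which did not enter the ranking. Ccl3 spans 6.08 in D2_resident 1 to 0.64 in D3_infiltrating 1; the lowest genes are under 0 in all 3 libraries.

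The lowest genes included signalling, actin-binding and surface proteins. Tyrobp, the signalling adaptor of many myeloid receptors, had 53 UMIs (396 CPM against 2239 CPM) in D2_resident 1, 97 (969 CPM against 2756 CPM) in D1_mixed 3 and 0 in D3_infiltrating 1, where it was at least 21.0-fold lower than 1841 CPM. A Tyrobp UMI was in 14.4% of thinned cluster 14 cells and in 84.3% of the other code 2 cells, 84.4% of microglia and 97.6% of neutrophil-like cells. Tmsb10, an actin-binding thymosin, was at 89.8 CPM against 2467 CPM in D2_resident 1, 220 CPM against 2634 CPM in D1_mixed 3 and 0 UMIs in D3_infiltrating 1, at least 17.7-fold lower. Tmsb4x, its relative, was in 25.4% of thinned cluster 14 cells against 94.4% of the other code 2 cells, and was named after its values were seen. Cd52, Fxyd5 and Ifi27l2a were likewise at 0 UMIs in D3_infiltrating 1, at least 13.8-fold, 11.1-fold and 19.8-fold lower, and at 142, 120 and 37.4 CPM in D2_resident 1, against 1153, 1226 and 1636 CPM.

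The interferon-induced transmembrane genes were among the lowest. Ifitm3, which restricts virus entry, was at 217 CPM (29 UMIs) against 2722 CPM in D2_resident 1, 30.0 CPM (3 UMIs) against 691 CPM in D1_mixed 3 and 0 UMIs in D3_infiltrating 1, at least 35.6-fold lower than 3119 CPM. Microglia of these libraries had 550, 192 and 115 CPM. Ifitm2 had 2, 0 and 0 UMIs and Ifitm1 had 0 UMIs in all 3 libraries. These are near-identical family members, and reads that could fit several may be split or lost in the authors' counting. Of the interferon response list, whose members code mainly for antiviral proteins, 5 of 12 genes counted were lower in both libraries and 0 higher in both, beside 1270 lower and 3486 higher of the 7480 genes. Irf7 alone was at least 2-fold lower in both, beside 4.56% of all genes counted. The list's median was -0.15 in D2_resident 1 and -1.46 in D3_infiltrating 1, and its summed level was lower in cluster 14 in all 5 libraries with 7 or more cells, from 2124 against 2453 CPM in D2_resident 1 to 130 against 3163 CPM in D3_resident 1.

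Antigen presentation genes were low in both libraries. Of 7 counted, H2-Aa, H2-Ab1, H2-Eb1, H2-DMb1 and Cd74 were at least 2-fold lower in both, beside 4.56% of all genes counted, and the list's median log2 ratio was -6.13 in D2_resident 1 and -3.08 in D3_infiltrating 1, or -4.64 and -2.01 with genes at 0 UMIs set to the floor, where 4 of the 5 stayed past 2-fold and H2-DMb1 did not. Cd74, the chaperone of class II molecules, had 22.4 CPM (3 UMIs) against 3582 CPM in D2_resident 1, near the 34.9 CPM of microglia, and 1197 CPM (41 UMIs) against 4849 CPM in D3_infiltrating 1. In the 7 cells of D3_conflict 1 it was at 8534 CPM against 1586 CPM, the opposite order.

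Of 9 monocyte genes counted, 7 were lower in both libraries and 5 at least 2-fold lower in both, Ly6c2, Plac8, Vcan, Hp and S100a4, beside 1270 of 7480 and 4.56% over all genes, with list medians of -4.30 and -2.27, or -3.72 and -0.84 with genes at 0 UMIs set to the floor, where Vcan was no longer past 2-fold. Ly6c2, the surface marker of inflammatory monocytes, had 2 UMIs (15.0 CPM against 389 CPM) in D2_resident 1 and 1 UMI (29.2 CPM against 465 CPM) in D3_infiltrating 1. Vcan, a matrix proteoglycan, had 0 UMIs in the whole cluster.

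Ribosomal protein genes, which build the ribosome's subunits, were the broadest group. Of 83 counted, 79 were lower in both libraries, beside 1270 of all 7480 genes. At least 2-fold lower in both were 51, and 0 were at least 2-fold higher, beside 4.56% and 16.5% of all genes counted. With D1_mixed 3 added, by taking libraries with at least 10 cluster 14 cells, 4 were at least 2-fold lower in all 3, and the summed level in D1_mixed 3 was 93606 CPM in cluster 14 against 105811 CPM. Their median log2 ratio was -1.14 in D2_resident 1 and -5.03 in D3_infiltrating 1, where 38 of the 83 genes had 0 UMIs. With those at the floor the medians were -1.11 and -3.66, and 50 genes were at least 2-fold lower in both. Rpl41 was at -1.86 and -8.33, Rps24 at -1.62 and -5.25, and Rplp1 at -0.62 and -2.29. The genes were thus low to a different degree in the 2 libraries. Pseudogene copies can share reads with this family.

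Iron storage genes were low to unequal degrees. Fth1, the ferritin heavy chain, was at 12684 CPM against 38375 CPM in D2_resident 1, 40167 CPM against 50500.1 CPM in D1_mixed 3, and 117 CPM (4 UMIs) against 26357 CPM in D3_infiltrating 1. The 130 other low-ribosomal code 2 cells of D3_infiltrating 1 had 43997 CPM of Fth1 and 1024 CPM of Tyrobp, against 25203 and 1894 CPM in the remaining other code 2 cells of that library. The iron exporter Slc40a1 was at least 2-fold higher in both libraries on 5 and 1 UMIs.

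Other lists held members on both sides. Of 12 lipid-handling genes, Lpl and the cholesterol exporter Abca1 were at least 2-fold higher in both libraries, near the 16.5% found over all genes. The fatty acid carrier Fabp5 and the galectin Lgals3 were at least 2-fold lower, beside 4.56% of all genes. Abca1 was at 419 CPM (56 UMIs) against 112 CPM and at 525 CPM (18 UMIs) against 194 CPM. Fabp5 was at 277 CPM against 4263 CPM and at 584 CPM against 1796 CPM. Of 12 inflammatory cytokine genes, Tnf and the NF-kB inhibitor Tnfaip3 were at least 2-fold higher, again near the share over all genes. Il1b and Cxcl3 were at least 2-fold lower, beside 4.56% of all genes, but on 4 or fewer UMIs in cluster 14. Neither was past 2-fold with genes at 0 set to the floor. Of 11 glycolysis and hypoxia genes, Pgk1, Ldha, Bnip3 and Aldoa were at least 2-fold lower, beside 4.56% of all genes. Bnip3 was not past 2-fold at the floor, and 0 genes were higher, beside 16.5% of all genes. Of 15 lysosomal genes, 0 were past 2-fold in both libraries in either direction, beside 16.5% higher and 4.56% lower over all genes. The list's medians were -0.43 and 0.83.

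**Figure D4:**
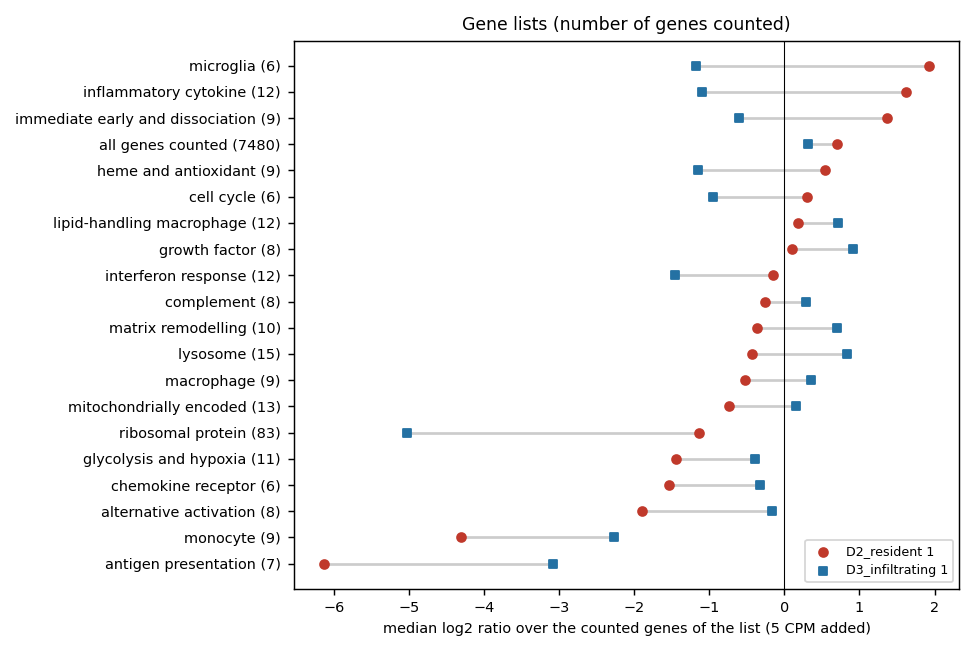
Median log2 ratio of cluster 14 to the other code 2 cells (5 CPM added) over the counted genes of each list with 5 or more genes counted, in D2_resident 1 (circles) and D3_infiltrating 1 (squares), with the number of genes in parentheses. Antigen presentation, monocyte and ribosomal protein lists are below 0 in both libraries; the inflammatory cytokine list is at 1.62 and -1.10, the second being -0.04 with genes at 0 UMIs set to the floor.

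In both libraries the ratio was lowest in the genes most abundant in the other code 2 cells. That level is also the denominator of the ratio, so the choice of genes fixes part of this order. Among genes at 20 CPM or more in the other code 2 cells, the quintile with the highest level had a median log2 ratio of -0.49 in D2_resident 1 and -0.50 in D3_infiltrating 1, and the lowest quintile 0.74 and 0.30. In D3_infiltrating 1 the first 4 quintiles were at 0.30, 0.42, 0.44 and 0.26, and the Spearman correlation of level and ratio across genes was -0.37 in D2_resident 1 and -0.15 in D3_infiltrating 1. The 100 highest genes of the other code 2 cells held 36.5% of their UMIs and 17.1% of those of cluster 14 in D2_resident 1, and 28.5% and 13.8% in D3_infiltrating 1. The lower genes also had short transcripts. The median spliced length of annotated transcripts was 736 bases for the 341 genes at least 2-fold lower, 1765 bases for the 1235 at least 2-fold higher and 1269 bases for all genes counted. Across genes, which are not independent replicates, the Spearman correlation of length with the log2 ratio was 0.236 in D2_resident 1 and 0.230 in D3_infiltrating 1, and 0.218 and 0.211 without ribosomal protein genes.

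Across the 8 other code 2 clusters with 50 or more cells, which held 123 to 4504 cells, the Spearman correlation of their pooled profile with that of cluster 14 was 0.554 to 0.783 over 8220 genes. Within D2_resident 1 the profile was as close to microglia (0.673) as to the other code 2 cells (0.673), and in D1_mixed 3 the values were 0.682 and 0.684. These are descriptions across genes and share libraries. Ccl3 was at 3341 CPM in cluster 14, 1327 CPM in the code 2 cells of cluster 2, 114 CPM in those of cluster 11 and 11.4 to 109 CPM in those of the other 6 clusters. Plk2 was at 743 CPM in cluster 14 and at 0 to 20.8 CPM in the other code 2 clusters, and Pdgfb at 251 CPM and at 3.43 to 24.1 CPM. Ccl4 was at 5840.5 CPM in cluster 14, with 43.4% of those UMIs from 1 cell, and at 4497.5 CPM in the code 2 cells of cluster 2. These levels pool libraries that differ in level and in their share of each cluster, and the clusters were not compared within a library, so no order of clusters is read from them. Over the 5 libraries with 7 or more cluster 14 cells, Ktn1 was higher than in the other code 2 cells in all 5. Ccl3, Ccl4, Plk2 and Pdgfb were higher in D2_resident 1, D1_mixed 3 and D3_resident 1, on 3 to 21 UMIs a gene in the last. Ccl3 and Pdgfb were also higher in D3_infiltrating 1, at log2 ratios of 0.64 and 0.96, but on few UMIs. The Ccl3 interval there held the level of the other code 2 cells. The median ribosomal protein share per cell and the Tmsb10 level were lower in all 5, with the summed ribosomal protein level nearest to that of the other code 2 cells in D1_mixed 3.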

How the data were processed

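Gene by cell tables of raw UMI counts were deposited by the authors for 25 libraries. Cell Ranger 3.1.0 and the builds GRCm38 and mm10 are named per the submitters' processing notes. Clusters, cell type codes and a percent of mitochondrial counts come from the authors' deposited table. The summed counts equalled the deposited totals in all 30958 cells. The replicate is the library of 1 to 3 mice; nothing in the labels says more of how replicates were made. Counts were summed over cells per library, scaled to CPM and compared as log2 ratios with 5 CPM added (numpy 2.4.6, scipy 1.17.1, pandas 2.3.3, Python 3.11). Named genes were the 20 highest, at 20 CPM or more in cluster 14 and higher in every library with 20 cells on both sides, and the 10 lowest by the mirrored rule. The 34 gene lists and the members were chosen with earlier results of these data known. Chosen after the values were seen were the thinning to 700 UMIs, the 2-fold line in both libraries, the 1% ribosomal line, the ribosomal and mitochondrial gene sets (taken by name), the 2000 UMI limit, the promoters, the motifs and the extra genes. The planned count tests between days were not run, because no library of day 10 or 21 held more than 1 cell of the cluster. The ratio was checked on simulated sums, with changes placed only in genes well above 20 CPM in the other code 2 cells. That check had no spread between cells and does not cover leading genes under 20 CPM there. Doublets were not called and free RNA was not subtracted. Intervals are exact binomial or Poisson at 95%. Transcript lengths are from GENCODE M21. Reporter, Xist and Y-linked genes were not analysed. Values of a few genes are not reported here.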

Additional observations from a re-analysis of the deposited data

Results flagged for a closer look

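Of 20 gene lists with 5 or more genes counted, 10 had medians of opposite sign in the 2 libraries with 20 or more cluster 14 cells, and in 2 of them both medians were at least 1 from 0. The inflammatory cytokine list had a median log2 ratio to the other code 2 cells of 1.62 in D2_resident 1 and -1.10 in D3_infiltrating 1, a difference of 2.72, and the microglia list 1.93 and -1.18, a difference of 3.11. In D3_infiltrating 1, 6 of the 12 cytokine genes and 5 of the 6 microglia genes had 0 UMIs in cluster 14. These were set to the floor of 3 counts, or to a log2 ratio of 0 where that floor exceeded the other code 2 cells. The medians there were then -0.04 and 0, so the negative values rest on the 5 CPM added. A median held at 0 in this way gives no direction. Each of these groups is 1 library, so the difference was not tested, and day, sort and sequencing pool cannot be told apart between them. No group of 4 or more libraries held enough cluster 14 cells for a check of single outlying libraries.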

How the results depend on the processing

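No paired analysis was possible because no test between groups of libraries was run, so replicate numbers had nothing to pair; the ratio within libraries sets cells beside cells of the same library and was left as a description, since the clusters were made from these genes. The tests between days needed infiltrating or mixed libraries with at least 20 cluster 14 cells, which D3_infiltrating 1 alone had, and fits on smaller sums were not run. The counts of genes at least 2-fold higher and lower (1235 and 341) depended on the settings. With 20 CPM added 675 were higher. With at least 10 cells a library, 617 were higher and 156 lower. Thinning to 2000 UMIs left D2_resident 1 alone (21 cells, against 3 in D3_infiltrating 1) and gave 3231 and 1270. Pooled counts gave 3016 higher. Leaving out either library gave 2178 to 2924 higher and 684 to 1835 lower. Of alternatives chosen after seeing the data, thinning to 700 UMIs gave 664 lower, selecting genes by the other code 2 cells alone gave 612 higher, and cells of at most 2000 UMIs on both sides gave 1996 and 2224. The ribosomal protein median log2 ratio was -2.95 and ranged from -1.04 to -5.03 over all alternatives, below 0 in each. It was -5.03 and -1.14 in the 2 libraries alone. The 51 ribosomal protein genes at least 2-fold lower became 4 with at least 10 cells a library, 82 in D3_infiltrating 1 alone and 80 with at most 2000 UMIs on both sides. The share of 0.919% was 0.381% with all cells as the denominator and, by an alternative chosen after seeing the data, 0.545% without D2_resident 1. Among the 30 named genes, Pnpla6 turned to -0.84 with 2000 UMIs and Ntn3 to -0.22 with 700 UMIs. The 20 leading genes shared 10 with the list under 1 CPM added, 8 under 20 CPM, 5 with at least 10 cells a library, 2 under pooling and 1 each with 700 UMIs, 2000 UMIs and at most 2000 UMIs, and the 10 lowest shared 9, 9, 5, 3, 8, 2 and 4. No library held 50 cluster 14 cells, so that limit was not run. Depth limits single genes: 87.6 CPM is the level of 3 UMIs in D3_infiltrating 1.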
